A study of Danio rerio with 6 samples.

Results

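The genes described here are 10 zebrafish genes of haem synthesis and red cell formation. They comprise 7 enzymes of the haem pathway (alas1, alas2, alad, urod, cpox, ppox and fech), the mitochondrial iron importer gene slc25a37, and the erythroid transcription factor genes gata1a and klf1. They were taken by gene name from a count table of 32053 rows, and each name stood on 1 row. The exposed group (titled BP_3) was kept in BP-3 at 2 mg/L, and BP-3 is the usual abbreviation of the ultraviolet filter benzophenone-3. The other embryos are titled WT and labelled as control; a vehicle is not named. Both groups were zebrafish of 5 days post fertilization (dpf), the strain field says no more than zebrafish, and RNA was sequenced from gut dissected with forceps, 3 libraries a group. The labels do not say whether replicates were separate clutches or pools, and every p-value here rests on library-to-library spread alone, which may be technical.

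Haem is built in steps shared between the mitochondrion and the cytosol. The first enzyme, 5-aminolevulinate synthase, exists as a general form (alas1) and an erythroid form (alas2), and the last, ferrochelatase (fech), inserts iron into protoporphyrin. Red cells make most of the body's haem for haemoglobin, while liver and gut use haem for cytochromes P450. Several of the genes are known from anaemic or porphyric zebrafish mutants, among them sauternes (alas2), yquem (urod), montalcino (ppox), frascati (slc25a37) and vlad tepes (gata1a).

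Total counts per library lay between 24000785 and 41726516 in BP-3 and between 23567603 and 36961866 in WT. The replicate 3 libraries of both groups stood apart from the other 4 on the second principal component of log2 CPM (CPM is the count relative to library size, scaled by TMM), which held 23.0% of the variance. The treatment label of exposed replicates 2 and 3 reads BP-4 and BP-5 where that of replicate 1 reads BP-3, but all are titled BP_3 and their protocol gives BP-3, so they form 1 group here. Enterocyte markers took 0.461% to 0.528% of counts in BP-3 and 0.296% to 0.378% in WT, a sum of which apoa1a alone gave 32.7%. Hepatocyte markers were present too, at 1.31% to 1.38% in BP-3 and 0.848% to 0.866% in WT, a sum of which apobb.1 gave 39.2%. Haematopoietic genes were therefore read in a dissected mixture of tissues, in which more cells of a type and more RNA per cell cannot be told apart.

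Of the 10 genes, 5 were higher in BP-3 at an adjusted p of 0.05 in the quasi-likelihood test of edgeR, Benjamini-Hochberg adjusted over 23167 rows, against 6.26% of all rows. These were alas1, alas2, urod, fech and slc25a37. None of the 10 was lower at the adjusted p of 0.05, against 4.29% of all rows. By DESeq2 and limma-voom 0 were lower too, against 1280 and 1031 of all rows. At an unadjusted p of 0.05 in edgeR 0 were lower as well. The share of all rows lower at that p was not counted. The 3 BP-3 values lay above the 3 WT values for 7 of the 10, against 16.1% of all rows. The median log2 fold change of the 10 was 0.43, and that of all tested rows was -0.00099. With both replicate 3 libraries left out 4 of the 10 were called, and between 3 and 5 were called when single libraries were left out. The lowest count, 3, came without BP-3 replicate 1 or 2 or any of the 3 WT replicates.

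**Figure D1:**
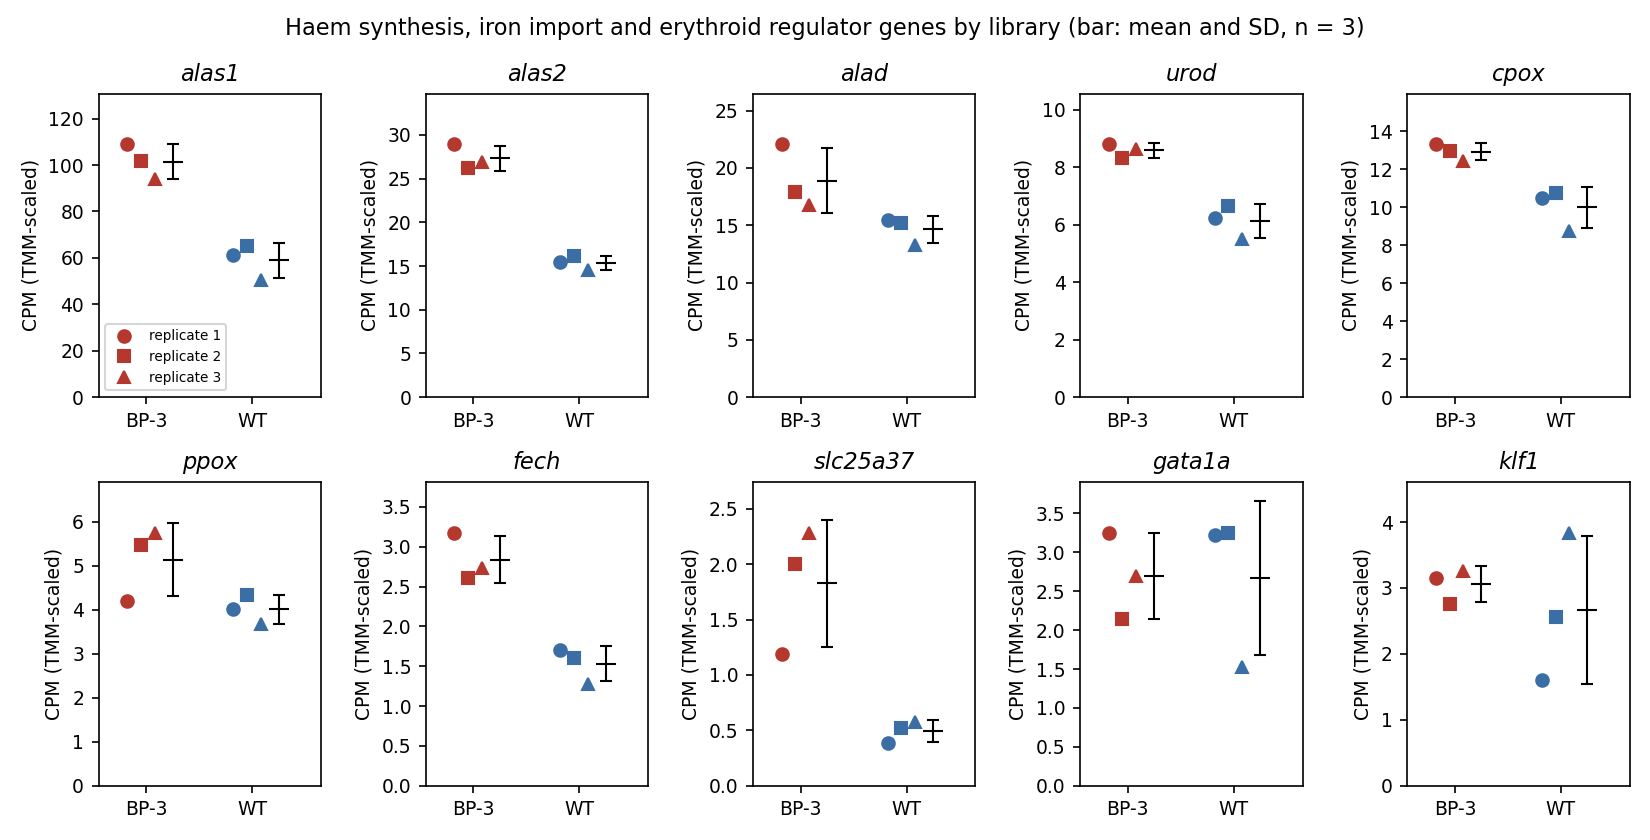
TMM-scaled CPM of the 10 genes in each library (BP-3 left, WT right; circle, square and triangle are replicates 1, 2 and 3), with the mean and SD of 3 libraries. In alas2 the BP-3 libraries lie between 26.2 and 28.9 CPM, above all WT libraries, while in gata1a and klf1 the groups overlap.

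The erythroid synthase gene alas2 stood at 28.9, 26.2 and 26.9 CPM in BP-3 replicates 1 to 3, against 15.5, 16.1 and 14.5 CPM in WT replicates 1 to 3. No library came near the other group, and the spread within each group was about 5.3% and 5.4% of its mean. The rise was 1.78-fold, a log2 fold change of 0.83 ± 0.08 (SE; edgeR quasi-likelihood test, adjusted p = 0.000301). The general synthase gene alas1, whose product sets the pace of haem synthesis outside red cells and which drugs induce in mammalian liver, had 109, 102 and 93.8 CPM in BP-3, against 61.2, 65.1 and 50.6 CPM in WT. It rose 1.72-fold (log2 fold change 0.78 ± 0.10, SE; edgeR, adjusted p = 0.00119). The groups did not overlap here either, and replicate 3 was the lowest library in both. The calls of alas2 and alas1 held with each of the 6 libraries left out, where the largest adjusted p were 0.00311 and 0.00920.

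The ratio of both forms was compared between the groups. The count of alas2 was 26.5%, 25.8% and 28.7% of that of alas1 in BP-3, against 25.3%, 24.8% and 28.6% in WT, a ratio that takes no account of transcript length. The log2 ratio differed by 0.042 between BP-3 and WT (two-sided exact permutation test over 3 against 3 libraries, p = 0.50, where the smallest possible p is 0.10). Within each group the SD of this log2 ratio was 0.080 in BP-3 and 0.11 in WT, larger than the difference between them.

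Likeness of other genes (15420 tested, mean log2 CPM 1 or above) was measured as the root mean square difference of centred log2 CPM over the 6 libraries. Genes of the lists described below, and rows with clone, LOC or RNA family names, were left out. A listed red cell, liver or gut gene could therefore not appear among the nearest. Nearest to alas2 were ddx5, leap2, ugdh, hif1al and apoc2, at 0.030 to 0.047. They encode an RNA helicase, an antimicrobial peptide of the liver, an enzyme that makes UDP-glucuronic acid, a hypoxia-inducible factor and an apolipoprotein. Nearest to alas1 were fkbp9, rpe65a, sult2st2, mtr and sgk2b, at 0.046 to 0.058. Of these, sult2st2 is a sulfotransferase gene and mtr encodes methionine synthase. For scale, apoc2 averaged 599 ± 14.8 CPM in BP-3 and 329 ± 29.0 CPM in WT (SD, n = 3 each).

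The enzymes between the first and the last step follow in pathway order. The gene alad, whose product joins 2 aminolevulinate molecules into porphobilinogen, had 22.1, 17.9 and 16.7 CPM in BP-3, against 15.5, 15.2 and 13.3 CPM in WT. The groups did not overlap, with BP-3 replicate 3 closest to WT, and the change missed the threshold (log2 fold change 0.37 ± 0.12, SE; edgeR, adjusted p = 0.0739). It passed without BP-3 replicate 3 (adjusted p = 0.0429) and without both replicate 3 libraries (adjusted p = 0.0378). The next enzymes of the pathway, outside the 10, are encoded by hmbsa, hmbsb and uros. Of these 3 genes, hmbsb was called higher, at 1.33-fold (edgeR, adjusted p = 0.0212). Its call was lost without BP-3 replicate 2 (adjusted p = 0.0636), BP-3 replicate 3 (0.0529), WT replicate 1 (0.0834) or WT replicate 2 (0.0733). The paralogue hmbsa had a log2 fold change of 0.33 ± 0.12 (SE; adjusted p = 0.117).

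The gene for uroporphyrinogen III synthase, uros, lay on the other side of 0. It had 21.2, 20.7 and 19.5 CPM in BP-3, against 24.8, 24.6 and 21.97 CPM in WT, so that all BP-3 libraries were below all WT libraries. The log2 fold change of -0.22 ± 0.08 (SE) did not pass the threshold (edgeR, adjusted p = 0.124). With the replicate 3 libraries as a batch term uros was called lower (log2 fold change -0.22, adjusted p = 0.0261), and without both of them it was not (adjusted p = 0.0587).

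The gene urod, for the decarboxylase that follows, had 8.81, 8.31 and 8.65 CPM in BP-3, against 6.25, 6.65 and 5.49 CPM in WT. It rose 1.40-fold (log2 fold change 0.48 ± 0.12, SE; edgeR, adjusted p = 0.0289). The groups did not overlap, yet the call was lost whichever library was left out: the adjusted p was 0.0973, 0.0797 and 0.0537 without BP-3 replicates 1 to 3, and 0.0846, 0.0517 and 0.0559 without WT replicates 1 to 3. It was 0.0530 without both replicate 3 libraries, while the log2 fold change stayed between 0.41 and 0.54 under these omissions.

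The oxidase gene cpox, which acts after urod, had 13.3, 13.0 and 12.4 CPM in BP-3, against 10.5, 10.7 and 8.75 CPM in WT. The groups were separate, and the difference fell just outside the threshold (log2 fold change 0.37 ± 0.11, SE; edgeR, adjusted p = 0.0560). The gene of the last but 1 enzyme, ppox, had 4.20, 5.47 and 5.75 CPM in BP-3, against 4.02, 4.34 and 3.68 CPM in WT. Here BP-3 replicate 1 lay among the WT libraries, and the 95% interval of the log2 fold change ran between -0.017 and 0.71 (adjusted p = 0.214).

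**Figure D2:**
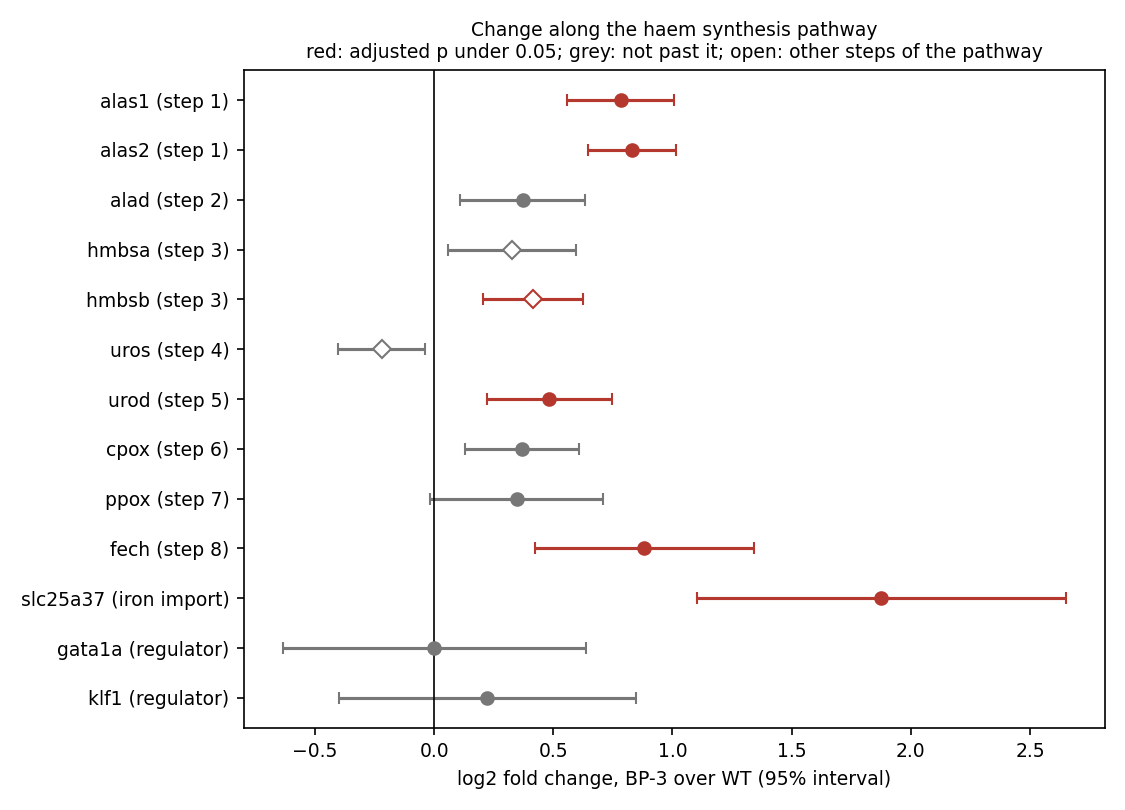
log2 fold change of BP-3 over WT with its 95% interval for the enzymes of haem synthesis in pathway order, the iron importer and the transcription factors; red points passed an adjusted p of 0.05 and open diamonds are pathway genes outside the 10. The points of alas1, alas2 and fech lie at 0.78 to 0.88, those of alad, cpox and ppox at 0.35 to 0.37, and slc25a37 at 1.88 with a wide interval.

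The largest fold change of the 10 was that of the iron importer gene slc25a37. Next was fech, whose log2 fold change lay within its SE of those of alas2 and alas1. Without WT replicate 3 fech stood below alas2, at 0.78 against 0.79. The ferrochelatase gene fech had 131, 91 and 67 counts in BP-3, or 3.18, 2.61 and 2.73 CPM, against 62, 46 and 31 counts in WT, or 1.71, 1.61 and 1.28 CPM. It rose 1.84-fold (log2 fold change 0.88 ± 0.21, SE; edgeR, adjusted p = 0.0240), with all BP-3 libraries above all WT libraries. The call was lost without BP-3 replicate 1 (adjusted p = 0.0992), BP-3 replicate 2 (0.0611), WT replicate 1 (0.0536), WT replicate 2 (0.0653), WT replicate 3 (0.0523) or both replicate 3 libraries (0.0532), and it held without BP-3 replicate 3 (0.0422).

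The gene slc25a37, for mitoferrin 1, which carries iron into the mitochondria of developing red cells, was thinly counted. It had 49, 70 and 56 counts in BP-3, against 14, 15 and 14 counts in WT, which is 1.19, 2.01 and 2.29 CPM against 0.386, 0.525 and 0.578 CPM. The lowest BP-3 library was still above the highest WT library. The rise was 3.67-fold, with a 95% interval of 2.15-fold to 6.27-fold (log2 fold change 1.88 ± 0.35, SE; edgeR, adjusted p = 0.00841), and the call held with each of the 6 libraries left out (largest adjusted p = 0.0429). With BP-3 replicate 1, whose treatment field reads BP-3, as the only exposed library, the log2 fold change was 1.27. The adjusted p of that fit (0.279) takes its spread from WT alone and is no test of the call. The paralogue slc25a28, for mitoferrin 2, which serves other cells, was chosen after its values were seen. It had 67.9, 66.4 and 59.1 CPM in BP-3, against 73.3, 76.7 and 72.8 CPM in WT, with a log2 fold change of -0.20 ± 0.08 (SE; adjusted p = 0.121).

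Neither transcription factor passed. The gene gata1a, the master regulator of red cell genes, had 3.25, 2.15 and 2.69 CPM in BP-3, against 3.22, 3.25 and 1.53 CPM in WT. WT replicate 3 was the lowest library of all, and the other 2 WT libraries matched the highest BP-3 library. The log2 fold change was 0.0017, with a 95% interval between -0.63 and 0.64 (edgeR, adjusted p = 0.998), so a change of up to about 1.55-fold either way lay inside the interval. Its sign turned under several settings, as listed in the closing section. The gene klf1, an erythroid factor that activates globin genes in mammals, had 3.15, 2.75 and 3.26 CPM in BP-3, against 1.597, 2.55 and 3.84 CPM in WT. The WT libraries spanned the whole BP-3 range, and the 95% interval ran between -0.40 and 0.85 (log2 fold change 0.22 ± 0.28, SE; adjusted p = 0.667). Without WT replicate 1 the log2 fold change was -0.060.

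The list of other regulators of red cell formation held 28 genes, among them tal1, lmo2, gata2a, nfe2 and the erythropoietin receptor gene epor. It also held urahb, an enzyme gene counted again among the red cell membrane and enzyme genes below (log2 fold change -0.52, not called). Of these 28, 0 were called in either direction by edgeR, against 10.6% of all rows. At an unadjusted p of 0.05, 2 were higher and 3 lower, and the share of all rows at that p was not counted. By limma-voom 0 were called, and DESeq2 called bcl11aa lower (adjusted p = 0.0313). Without BP-3 replicate 3 bcl11aa was also called lower (adjusted p = 0.0242), and without WT replicate 2 drl was called higher (0.0482). With the replicate 3 libraries as a batch term, 2 were called higher (stat5a and drl) and 3 lower (bcl11aa, klf17 and klf6a), at adjusted p between 0.000734 and 0.0422. Of all 23167 rows, 5421 were called with that term, 2931 higher and 2490 lower. Without both replicate 3 libraries bcl11aa was the 1 gene called, lower (adjusted p = 0.00470), while 3894 of all rows were called. The median log2 fold change of the list was 0.017. The smallest adjusted p by edgeR belonged to klf17, a zebrafish Krüppel-like factor of embryonic blood, with a log2 fold change of -0.31 ± 0.10 (SE; 0.0659). It had 9.90, 9.14 and 9.59 CPM in BP-3, against 12.0, 11.7 and 11.8 CPM in WT, so the groups did not overlap. Next were bcl11aa at -0.31 ± 0.10 (adjusted p = 0.0691), drl, a zinc finger gene of blood progenitors, at 0.91 ± 0.30 (0.0873), and klf6a at -0.16 ± 0.06 (SE; 0.153).

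**Figure D3:**
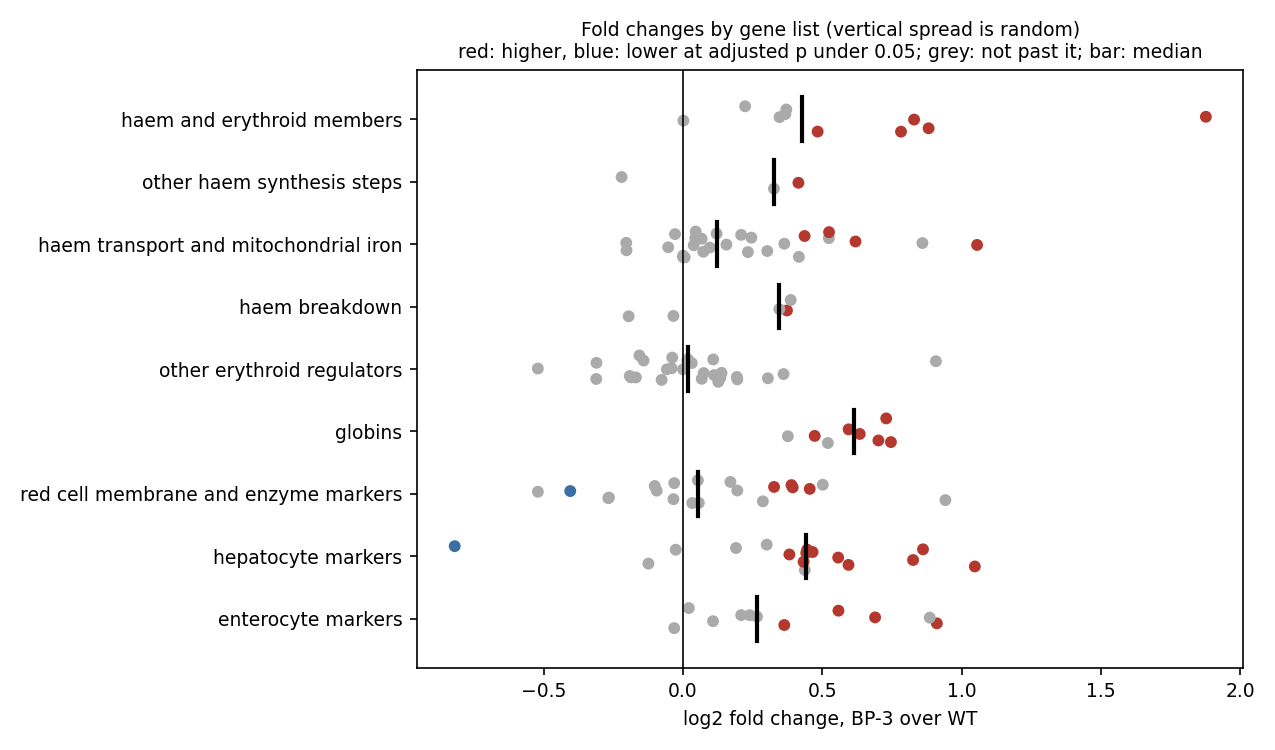
log2 fold change of each tested gene by list, with the median as a bar; red and blue mark genes higher and lower at an adjusted p of 0.05. The erythroid regulators centre near 0 (median 0.017), the 10 haem and erythroid genes on 0.43 and the globins on 0.61.

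Among 27 genes of haem transport and mitochondrial iron, 4 were higher and 0 lower, against 6.26% and 4.29% of all rows. Their median log2 fold change was 0.12. The transferrin receptor gene tfr1a, mutated in the anaemic zebrafish chianti, had 17.6, 18.8 and 19.6 CPM in BP-3, against 8.79, 7.98 and 10.2 CPM in WT. It rose 2.08-fold (log2 fold change 1.06 ± 0.11, SE; edgeR, adjusted p = 0.000356). Smaller rises were those of abcb10, a mitochondrial transporter that in mouse associates with mitoferrin 1, at 1.54-fold, of pgrmc1, a haem-binding membrane protein gene, at 1.44-fold, and of the porphyrin transporter gene abcb6a at 1.35-fold. The count of 4 became 2, tfr1a and pgrmc1, without BP-3 replicate 2 or WT replicate 1, where abcb10 had adjusted p of 0.0546 and 0.0503 (edgeR). The call of abcb6a was also lost without BP-3 replicate 1 or WT replicate 2 (adjusted p = 0.0892 and 0.0965).

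In haem breakdown 1 of 5 genes was called, against 10.6% of all rows. The haem oxygenase gene hmox1a rose by 0.37 on the log2 scale (edgeR, adjusted p = 0.0318), and this call was lost with any of the 6 libraries left out (adjusted p between 0.0514 and 0.112). The constitutive oxygenase genes hmox2a and hmox2b had log2 fold changes of -0.19 ± 0.08 and 0.35 ± 0.17 (SE), and the biliverdin reductase gene blvra one of 0.39 ± 0.21 (SE), none past the threshold.

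Other red cell transcripts were set beside these genes. Of 8 tested globin genes, 6 were higher and 0 lower in BP-3 (median log2 fold change 0.61), against 6.26% and 4.29% of all rows. The list's summed level was 1742, 1601 and 1279 CPM in BP-3, against 1087, 1070 and 830 CPM in WT. The embryonic globin genes hbbe1.3, hbae3, hbbe1.2 and hbae1.3 rose 1.68-fold, 1.66-fold, 1.63-fold and 1.55-fold. The globin count became 3 without BP-3 replicate 1 or BP-3 replicate 2. The adult globin genes hbaa1, hbaa2, hbba1 and hbba2 were at or near 0 and not tested, with hbaa2 at 0 in every library.

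Of 20 red cell membrane and enzyme genes, 4 were higher and 1 lower, against 6.26% and 4.29% of all rows. Their summed level was 1139, 1115 and 1110 CPM in BP-3, against 1074, 1073 and 1079 CPM in WT. The anion exchanger gene slc4a1a, mutated in the zebrafish retsina, rose 1.25-fold, the water channel gene aqp1a.1 rose 1.37-fold, nt5c2l1 rose 1.31-fold and the lipoxygenase gene alox12 fell by 0.40 on the log2 scale. The ammonium channel gene rhag gave 25.5% of the summed level. The gene tmod4, also a muscle gene, is in it at 255, 244 and 230 CPM in BP-3 and 263, 261 and 222 CPM in WT. The widely expressed txn, which rose 1.31-fold and was named after its values were seen, is in it too. The part of muscle RNA in this sum was not tested. The 4 called higher became 0 without BP-3 replicate 1 or BP-3 replicate 2, 2 without WT replicate 1 or WT replicate 3, and 1 without WT replicate 2.

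Each gene was set against the summed red cell membrane and enzyme genes of the same library. The mean log2 ratio was higher in BP-3 than in WT for all 10 genes, with a median difference of 0.37. The libraries of both groups overlapped for ppox, gata1a and klf1, at differences of 0.29, 0.017 and 0.22. The summed denominator itself differed by 0.060 on the log2 scale. Without it the log2 fold changes of the 10 were also all above 0, against 49.8% of all rows. For alas2 the ratio was 2.54%, 2.35% and 2.42% in BP-3, against 1.44%, 1.503% and 1.34% in WT, a log2 difference of 0.77. For slc25a37 the log2 difference was 1.79. Each of these 2 gave p = 0.10 in the two-sided exact permutation test (n = 3 a group), the smallest p that the design allows. Both genes were already separate in CPM and the denominator hardly differed, so this p restates that separation and adds no support. With 6 defining red cell genes as the denominator (slc4a1a, ank1a, sptb, rhag, epb41b and cahz), chosen after the data were seen, 9 of the 10 were higher and the median difference was 0.32.

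Relative to the summed globins most of the 10 lay on the other side of 0. The summed globins were themselves higher in BP-3 by 0.63 on the log2 scale, so a gene with a smaller rise lay below 0. The exact p-values of these ratios reflect the shift of the globins as well as that of each gene. The log2 ratio was higher in BP-3 than in WT for 4 of the 10, namely alas1, alas2, fech and slc25a37, and the median difference was -0.20. For alas2 the ratio to globins was 1.66%, 1.63% and 2.103% in BP-3, against 1.43%, 1.51% and 1.75% in WT, groups that overlap (log2 difference 0.20; exact permutation test, p = 0.30, n = 3 a group). For alas1 it was 6.26%, 6.35% and 7.34% in BP-3, against 5.63%, 6.08% and 6.10% in WT, with every BP-3 library above every WT library (log2 difference 0.16, p = 0.10 by the exact permutation test, n = 3 a group). The groups were also separate for fech, higher in BP-3 by 0.27 on the log2 scale (exact permutation test, p = 0.10, n = 3 a group). For alad it was 1.27%, 1.117% and 1.31% in BP-3, against 1.42%, 1.42% and 1.597% in WT, with every BP-3 library below every WT library (log2 difference -0.27, p = 0.10 by the exact permutation test, n = 3 a group). Which of these red cell transcripts tracks the number of red cells was not tested.

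**Figure D4:**
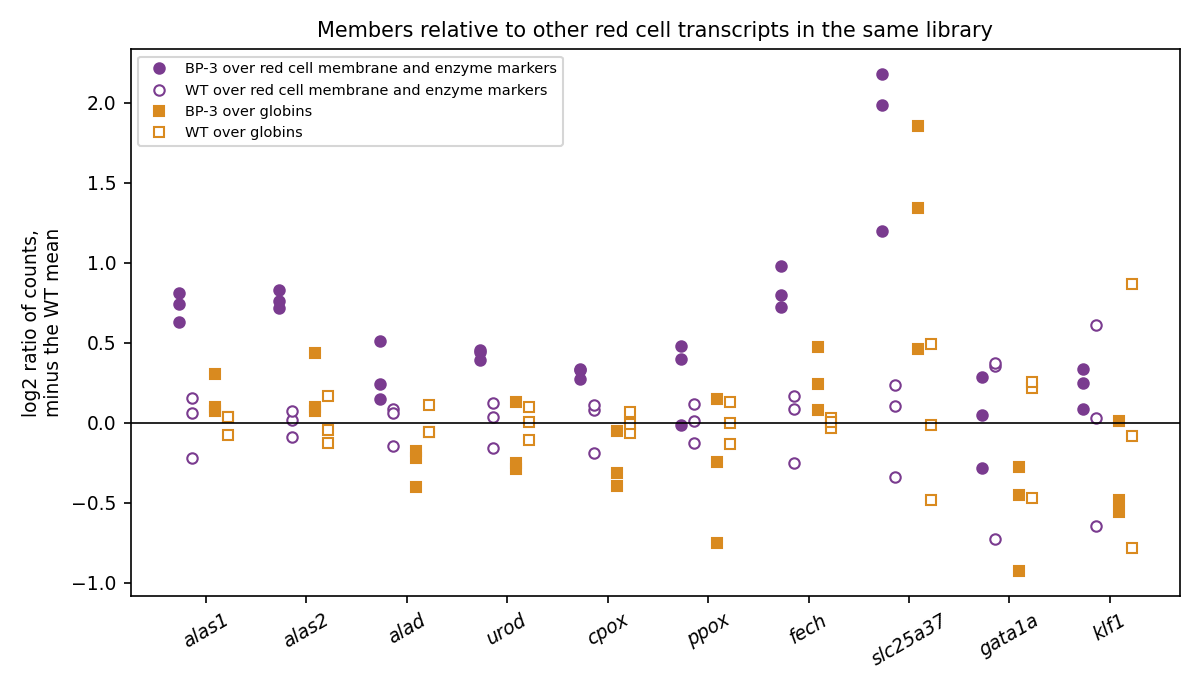
log2 ratio of each gene's count to the summed red cell membrane and enzyme genes (purple circles) or to the summed globins (orange squares) in each library, minus the WT mean; filled symbols are BP-3 and open symbols WT. For alas2 the BP-3 mean lies 0.77 above WT on the first scale and 0.20 on the second.

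Markers of liver and gut were counted beside alas1. Of 16 hepatocyte markers 10 were higher and 1 lower, with none at 0, against 6.26% and 4.29% of all rows. Together the 16 took 1.31% to 1.38% of counts in BP-3 and 0.848% to 0.866% in WT. The number higher became 6 without BP-3 replicate 2. Of 11 enterocyte markers 4 were higher and 0 lower, and 7 were higher with the replicate 3 libraries as a batch term or left out. In these 2 settings 2931 and 2147 of all rows were higher. Of 14 haem-containing liver and gut enzymes, most of them cytochromes P450, 10 were higher and 1 lower, and the lower count became 0 without BP-3 replicate 1, 2 or 3 or WT replicate 1 or 2. The gene apobb.1 gave 39.2% of the hepatocyte sum and apoa1a gave 32.7% of the enterocyte sum, and both were themselves called higher. The enterocyte markers not called included fabp2, vil1 and cdx1b (edgeR, adjusted p = 0.136, 0.317 and 0.911). Also not called was apoa4b.1, at 964, 365 and 948 CPM in BP-3 and 743, 268 and 221 CPM in WT. Set against the summed hepatocyte markers, alas1 stood at 0.804%, 0.733% and 0.732% in BP-3 and 0.696%, 0.738% and 0.613% in WT. These ranges overlap, and the log2 difference was 0.15 (exact permutation test, p = 0.30, n = 3 a group). Against the same markers the log2 difference of alas2 was 0.19 (exact permutation test, p = 0.10, n = 3 a group). Every BP-3 library lay above every WT library. The difference of slc25a37 was 1.21 and that of fech 0.26. Those of alad, urod, cpox, ppox, gata1a and klf1 were below 0, between -0.56 and -0.15. The summed hepatocyte markers were themselves higher in BP-3 by 0.64 on the log2 scale, so a gene with a smaller rise lay below 0. For cpox (-0.26) every BP-3 library was below every WT library (exact permutation test, p = 0.10, n = 3 a group). In CPM cpox was higher in every BP-3 library than in every WT library, so this order reflects the denominator. Set against the summed enterocyte markers, alas1 stood at 2.04%, 2.20% and 1.942% in BP-3 and 1.59%, 1.940% and 1.76% in WT. These groups did not overlap, by a narrow margin, and the log2 difference was 0.23 (exact permutation test, p = 0.10, n = 3 a group). On the enterocyte scale too, alas2, fech and slc25a37 were higher in mean log2 ratio. There alad, urod, cpox, ppox, gata1a and klf1 were lower, between -0.48 and -0.070. The summed enterocyte markers were higher in BP-3 by 0.56 on the log2 scale, more than any of these genes rose. The part of liver and gut tissue in the rise of alas1 was not tested.

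Markers of other blood cells were counted as well. Of 9 myeloid markers 1, the macrophage gene mpeg1.1, was higher and 0 were lower by edgeR, against 6.26% and 4.29% of all rows. The number higher was 2 without BP-3 replicate 3 or WT replicate 3, 3 by DESeq2 or with the replicate 3 libraries as a batch term (mpeg1.1, lyz and csf1ra), and 4 without both replicate 3 libraries, where lcp1 joined. The list took 0.0155% to 0.0168% of counts in BP-3 and 0.0128% to 0.0138% in WT. Of 8 thrombocyte markers 0 were called by edgeR, with 2 higher and 0 lower at an unadjusted p of 0.05, and 1 was called without BP-3 replicate 3. The share of all rows at that unadjusted p was not counted, and the ranks of alad and ppox given above bound it. With the replicate 3 libraries as a batch term gp9 and fli1a were called higher (adjusted p = 0.0423 and 0.0449), and without these libraries gp9 alone was (0.0247). Of all rows, 2931 were called higher with that batch term and 2147 without these libraries.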

How the data were processed

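Libraries were read from both ends on an Illumina instrument, per the labels' protocols. The authors deposited 1 table of raw read counts per gene for each of 6 libraries, without normalization. Neither aligner, counter, annotation nor strand is given in the sources used here, and overlapping genes cannot be told apart. The submitters' processing notes name mm9, a mouse build, while the rows carry zebrafish symbols, so no coordinates are given; sequences are not used here. The 10 genes and all lists were chosen with earlier results of these data known.

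Rows were filtered with filterByExpr (23167 kept, 8886 removed; all 10 genes kept), scaled by TMM and compared with edgeR 4.0.16 in R 4.3.3 (glmQLFit, glmQLFTest, no covariates), with Benjamini-Hochberg adjustment over all rows. The SE is the log2 fold change over the root of F, and 95% intervals use the test's degrees of freedom. Tested on simulated data, the fit called most of the genes changed 2-fold or more. Of the 10 genes only slc25a37 changed that much, so this recall does not cover the others. With a mean of 0.496 CPM in WT slc25a37 was thinly counted, and the recall was not taken at such counts alone. The share of unchanged genes among the calls of the fit was above the nominal one. Alternatives used DESeq2 1.42.0 and limma 3.58.1. Named are the 10 genes and, in most lists, genes among the 4 with the smallest adjusted p. Other listed genes, such as the enterocyte markers not called, are named for description and outside this rule. The haem-containing liver and gut enzymes are not named singly. For alas2 and for alas1 the 5 nearest genes outside the lists are named too. Lists missing some written names are counted over genes found. One gene of haem transport is not reported here and was left out of its list. Figures were drawn with matplotlib 3.10.9. For slc25a37, the gene with the fewest counts, 1 count was worth 0.0243 to 0.0413 CPM.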

Additional observations from a re-analysis of the deposited data

How the results depend on the processing

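Under 17 alternatives, alas1 and alas2 kept their direction, and they kept their call in every setting with more than 1 exposed library. The gene slc25a37 kept its direction in all of them and its call in all but 1, BP-3 replicate 1 as the only exposed library; urod and fech kept their direction and lost their calls in 8 and 7 settings, that one included. In that setting the exposed group has no replicate spread, and the lone library is assumed to vary like WT. Calls kept or lost in it say nothing about stability. The number of the 10 genes called was 5 with the other scalings, filters and tools (DESeq2 and limma-voom included), 3 to 5 with single libraries left out and 2 with BP-3 replicate 1 as the only exposed library; none was lower in any setting. For gata1a the log2 fold change changed sign, at -0.0015 with DESeq2 size factors, -0.0016 with upper quartile scaling, -0.00012 with the 1 CPM filter and -0.25 without both replicate 3 libraries, and it lay between -0.26 and 0.16 with single libraries left out. For klf1 that range was -0.060 to 0.57, and for the log2 ratio of alas2 to alas1 it was -0.0025 to 0.11. The median log2 difference over the 10 genes relative to red cell markers became -0.20 with globins as the denominator. This shift follows from the denominators, as the summed globins differed by 0.63 on the log2 scale and the red cell markers by 0.060. The cause of the other shifts was not tested.

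Over all rows, 2446 were called (1451 higher, 995 lower). With single libraries left out this was 1084 to 2494 (696 to 1448 higher, 388 to 1046 lower), with BP-3 replicate 1 as the only exposed library 435 (293 and 142), and without both replicate 3 libraries 3894 (1747 lower). With the replicate 3 libraries as a batch term it was 5421 (2931 and 2490); these last 2 settings were added after seeing the data. With the replicate block it was 5026 (2747 and 2279), and 7 of the 10 genes were called, alad and cpox joining at adjusted p of 0.0122 and 0.0185; the block also called uros lower (0.0416) and 2 higher and 3 lower of the other erythroid regulators, and 8 enterocyte markers higher. Same-numbered libraries deviated together at correlations of 0.086, 0.064 and 0.23. BP-3 replicate 2 correlated slightly better with WT replicate 1 (0.086), so replicates 1 and 2 could not be told apart as pairs and the numbers were not taken as pairs. Each replicate 3 correlated below 0 with replicates 1 and 2 of the other group (-0.15 to -0.11). The main fit does not model this shared structure. Counting error alone would give slc25a37 a CV of 26.4% in WT, where 20.04% was measured, so depth limits that WT value. In BP-3 it would give slc25a37 13.2%, where 31.2% was measured. For gata1a and klf1 it would give 12.0% and 11.7% in WT, where the spread between libraries was 37.0% and 42.3%.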
